A study of Mus musculus with 20 samples.

Results

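The 35 genes described here make, move, store and export cholesterol and other sterols in stromal and immune cells of mouse interscapular brown adipose tissue. They were chosen by gene symbol from the 31053 genes of the count matrices and fall into 4 roles. There are 20 enzymes of sterol synthesis from acetate to cholesterol, 5 control genes (Srebf1, Srebf2, Scap, Insig1, Insig2), 5 genes of transport, storage and uptake (Stard4, Npc1, Npc2, Soat1, Mylip) and 5 genes of efflux and of the liver X receptors (Abca1, Abcg1, Lpcat3, Nr1h2, Nr1h3). All 35 passed the filter on low counts in ASC1-like and macrophage-like cells, where most of the tests that passed the threshold were found, and 31 to 34 passed it in the other classes tested.

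The study profiled 10 pools of brown fat cells by droplet single-cell RNA sequencing, and each pool was split by magnetic beads into a lineage-marked immune fraction (Lin+) and the unmarked rest (Lin-), which gives 20 libraries. C57BL/6J male mice were kept at colony room temperature, nominally 24 °C (RT), kept singly without nesting material at 6 °C for 4 days (cold), or given CL316,243 (CL), an agonist of the ADRB3 adrenergic receptor, at 0.75 nmol per hour from an implanted pump for 4 days. The study's results state a slightly lower room temperature than its methods do. Each of these 3 groups has 2 pools, all made with version 2 of the reagent kit. Female mice of an Adrb1 fl/fl line, all given tamoxifen, either carried Pdgfra-CreERT2 (KO) or were littermates without it (WT), with 1 pool per genotype at RT (kit version 3) and 1 in the cold (kit version 2). Pdgfra drives this Cre, so the deletion is aimed at PDGFRA-bearing stromal cells and not at the whole tissue. Each pool holds the tissue of 3 to 4 mice aged 8 to 14 weeks, so the spread between the 2 libraries of a group is a spread between pools and not between single mice.

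Cells build cholesterol from acetyl-CoA through mevalonate, farnesyl pyrophosphate, squalene and lanosterol. When sterol in the endoplasmic reticulum is low, the escort protein SCAP carries the SREBP transcription factors to the Golgi, where they are cut and released to switch on the synthesis genes, and when sterol is high the INSIG proteins hold SCAP back. Oxidised sterols bind the liver X receptors, which switch on the exporters ABCA1 and ABCG1 and the ligase MYLIP. Stromal cells of fat are best known for giving rise to adipocytes and for making matrix, while macrophages in fat take up the lipid of dying adipocytes and must store or export its cholesterol.

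Synthesis promoters are known for pairing a sterol response element, where SREBP binds, with a CCAAT box, where NF-Y binds. The 250 bases before the start of each gene were searched on both strands in the RefSeq promoter table (GRCm38.p6), which held 29 of the 35 members. The bases after the start that the table also lists were not searched. A CCAAT box (CCAAT, or ATTGG on the other strand) stood in 16 of the 17 synthesis promoters in the table (94.1%) and in 37.5% of the promoters of all 27025 genes. It stood in 4 of the 5 control promoters, in all 3 transport promoters and in 1 of the 4 efflux promoters. The element TCACNCCAC stood in 1 member promoter, that of Hmgcs1 (3.45% of the 29), against 1.22% of all genes. No member held the exact letters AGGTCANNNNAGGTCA, a perfect form of the spaced repeat bound by liver X receptors, which 0.0148% of all genes held. Imperfect repeats were not searched, so this does not say whether a member has a receptor site.

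The windows of 100 bases below, each read 5′ to 3′ on the gene's strand, show these boxes in capitals. Hmgcs1 is shown for the single TCACNCCAC match and Abca1 as an exporter. Tm7sf2, Nsdhl, Msmo1, Lss and Pmvk were chosen after their values in ASC1-like cells were seen. They had the largest falls after cold among synthesis genes called after both treatments and found to hold a CCAAT box. Fdps and Sqle, which fell further after cold than some of these, are not in the promoter table. The windows lie at chr13:119690168-119690267 (+ strand) for Hmgcs1, chr19:6067851-6067950 (- strand) for Tm7sf2, chrX:72918421-72918520 (+ strand) for Nsdhl, chr8:64733582-64733681 (- strand) for Msmo1, chr10:76531495-76531594 (+ strand) for Lss, chr3:89454357-89454456 (+ strand) for the one of its 2 listed promoters shown for Pmvk, and chr4:53159896-53159995 (- strand) for Abca1.
Hmgcs1: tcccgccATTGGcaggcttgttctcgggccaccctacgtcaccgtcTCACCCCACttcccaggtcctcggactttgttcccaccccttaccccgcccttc
Tm7sf2: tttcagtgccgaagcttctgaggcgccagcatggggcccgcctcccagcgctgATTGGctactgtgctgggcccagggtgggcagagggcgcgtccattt
Nsdhl: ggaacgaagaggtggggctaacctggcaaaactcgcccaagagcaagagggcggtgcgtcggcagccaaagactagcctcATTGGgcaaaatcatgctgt
Msmo1: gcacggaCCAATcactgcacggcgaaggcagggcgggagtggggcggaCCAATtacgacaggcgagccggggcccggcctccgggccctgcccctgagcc
Lss: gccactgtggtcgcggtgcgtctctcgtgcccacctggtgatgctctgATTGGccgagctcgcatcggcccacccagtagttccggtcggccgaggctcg
Pmvk: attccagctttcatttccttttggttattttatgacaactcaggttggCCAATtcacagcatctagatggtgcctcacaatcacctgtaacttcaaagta
Abca1: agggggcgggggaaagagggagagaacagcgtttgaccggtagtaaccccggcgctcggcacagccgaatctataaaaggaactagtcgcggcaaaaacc
The Hmgcs1 window holds both kinds of box, and the other 5 synthesis windows hold CCAAT boxes only. Those 5 genes were chosen for a CCAAT box, so its presence in their windows follows from the choice. The Abca1 window has no capitals because none of the searched motifs is in its letters, and imperfect repeats were not searched.

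After filters on cells, 66339 of 89637 Lin- barcodes and 59935 of 67122 Lin+ barcodes were kept, with a median of 1204 to 4358 UMIs per cell in a library. RT Lin- replicate 2 stands apart in that 28.0% of its barcodes passed. CL replicate 2 also stands apart, because its Lin+ and Lin- libraries share 1098 kept barcodes, 17.1% of the smaller library, where the median pair of libraries made with the same kit shares 1.03%. With the shared barcodes left out of both libraries, the count of members called was 14 in place of 13 in macrophage-like cells after cold, 16 in place of 19 in ASC1-like cells after CL (Hmgcs1, Cyp51 and Lpcat3 were lost, edgeR adjusted p = 0.0503 to 0.0744), and 10 in place of 11 and 9 in place of 7 in the CL comparisons of ASC1-like with ASC2-like and endothelial cells described below, and every other count of members was the same. The share of all genes called was not counted without the shared barcodes, so these counts cannot be set against it. Cells were clustered without using any of the 35 genes, and clusters were named from marker genes. Of 9 markers of ASC1 cells 7 were highest in the ASC1-like class, and for ASC2-like (8), vascular endothelial (VEC-like, 8), mural (8) and macrophage-like (MAC-like, 8) cells all markers were highest in their own class. For ASC3-like cells this was so for 7 of 8 markers, for DEND1-, DEND2- and DEND3-like dendritic cells, joined here as DEND-like, for 6 of 6, 4 of 6 and 5 of 5, and for Schwann-like cells for 6 of 6. The same markers named the clusters, so these counts follow largely from the naming and do not check the names independently. Fewer transcripts per cell and a lower share of the class's RNA cannot be told apart from these values, since each level is given as CPM, the summed count of a gene scaled to the total of all UMIs of that class in that library.

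Synthesis genes were not spread evenly over the classes at RT. The 20 enzymes together took 2313 ± 46.5 CPM (SD, n = 2) in Schwann-like cells and 2057 ± 47.1 CPM in ASC1-like cells, and the libraries of these classes overlap neither each other nor the next class. Cells named from adipocyte genes (DIFF-like, 1331 ± 187 CPM), plasmacytoid dendritic-like cells (DEND4-like, 1312 ± 153 CPM) and mural-like cells (1172 ± 234 CPM) followed, and each of these overlaps its neighbour in the order. The DIFF-like class held 64 and 362 cells at RT, the 362 in the library where 28.0% of barcodes passed. Whether these RT cells are differentiating was not tested. DEND-like (742 ± 167 CPM), ASC3-like (650 ± 55.7 CPM) and ASC2-like cells (630 ± 29.7 CPM) overlap in turn. VEC-like (470 ± 37.8 CPM) and MAC-like cells (398 ± 49.1 CPM) lay lower, among monocytes and lymphocytes, and the lowest class was erythroid-like, at 9.48 ± 3.33 CPM. These levels describe clusters of the same cells and were not tested.

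**Figure D1:**
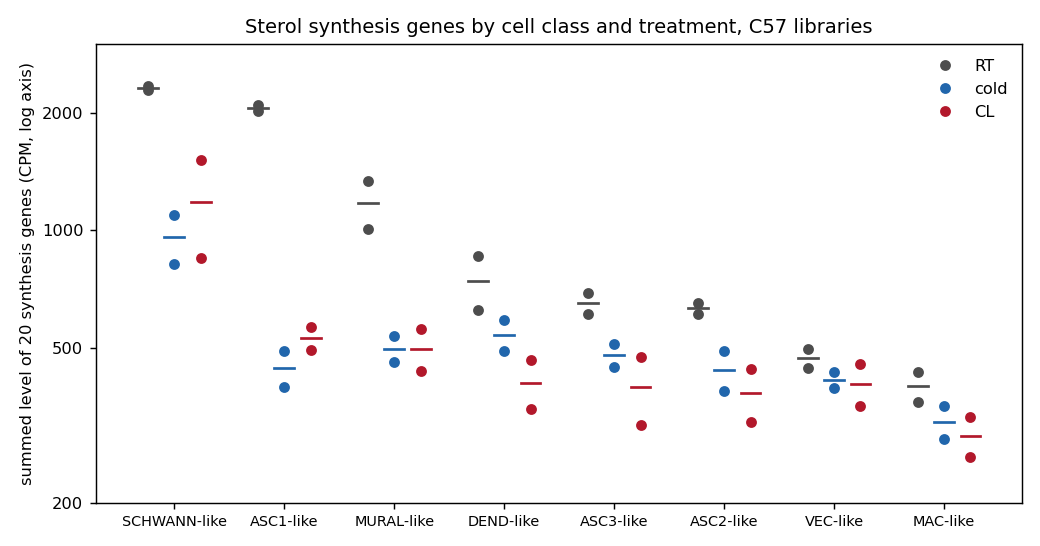
Summed level of the 20 synthesis enzymes (CPM, y axis) in each C57BL/6J library by cell class (x axis), with RT, cold and CL libraries as separate points. The ASC1-like points drop from 2024 to 2091 CPM at RT to 397 to 490 CPM after cold and 493 to 566 CPM after CL, while the VEC-like points lie between 354 and 497 CPM in every group.

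Sterol synthesis genes fell together in ASC1-like cells, the PDGFRA-positive stromal class with the highest level of them, after both treatments. The sum over the 20 enzymes was 2091 and 2024 CPM at RT, 490 and 397 CPM after cold and 566 and 493 CPM after CL, which is 4.64-fold lower after cold and 3.89-fold lower after CL. No cold or CL library reached the level of an RT library. After cold 22 of the 35 members fell and 2 rose (edgeR, Benjamini-Hochberg adjusted p under 0.05 over 12566 genes), where 5.55% of all genes tested fell and 6.28% rose. The 22 include 18 of the 20 synthesis enzymes, all but Ggps1 and Ebp. After CL 19 members fell and none rose, where 0.661% of all genes fell and 0.804% rose, and 16 of the 19 are synthesis enzymes. The median log2 change of the 35 members was -1.81 after cold and -1.49 after CL (-2.42 and -2.02 for the synthesis enzymes), beside 0.01 and -0.00 over all genes. DESeq2 called 23 members after cold and 20 after CL.

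The first steps, from acetate to mevalonate, were lower after both treatments. Acss2, which makes acetyl-CoA from acetate, stood at 62.2 and 79.97 CPM at RT, 16.3 and 15.5 after cold and 15.6 and 12.5 after CL. Acat2, the cytosolic thiolase that joins a pair of acetyl-CoA units, stood at 39.9 and 42.7 CPM at RT, 11.2 and 10.8 after cold and 12.95 and 9.01 after CL. Hmgcs1, which makes HMG-CoA, stood at 288 and 196 CPM at RT, 47.9 and 36.01 after cold and 74.1 and 58.3 after CL. In all 3 genes every cold and CL library lies below both RT libraries. The log2 change of Acss2 was -2.01 ± 0.17, edgeR adjusted p = 0.000467 after cold and -2.13 ± 0.19, edgeR adjusted p = 0.00245 after CL. Acat2 changed by -1.81 after both treatments on the log2 scale. Hmgcs1, whose promoter carries the sterol element shown above, changed by -2.49 ± 0.36, edgeR adjusted p = 0.00296 after cold, and by -1.78 ± 0.35, edgeR adjusted p = 0.0464 after CL. The CL call of Hmgcs1 is the closest of these to the threshold, and it was not made without CL replicate 1 (edgeR adjusted p = 0.229) or without CL replicate 2 (edgeR adjusted p = 0.128).

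The 3 enzymes that turn mevalonate into isopentenyl pyrophosphate fell as well. Mvk, mevalonate kinase, measured 70.99 and 80.2 CPM at RT, 27.1 and 22.04 after cold and 26.1 and 21.7 after CL. Pmvk, phosphomevalonate kinase, measured 109 and 142 CPM at RT, 22.9 and 16.1 after cold and 34.2 and 17.4 after CL. Mvd, the decarboxylase, measured 49.6 and 45.1 CPM at RT, 11.7 and 9.99 after cold and 12.5 and 9.65 after CL. Again no treated library overlapped an RT library. Their log2 changes were -1.51, -2.55 and -2.07 after cold (edgeR adjusted p = 0.00188, 0.000587 and 0.00154) and -1.49, -2.16 and -1.98 after CL (edgeR adjusted p = 0.011, 0.00653 and 0.0124).

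From there the pathway branches. Idi1, which isomerises isopentenyl pyrophosphate, stood at 129 and 84.3 CPM at RT, 20.97 and 9.77 after cold and 18.7 and 24.6 after CL. Fdps, which builds farnesyl pyrophosphate, stood at 299 and 193 CPM at RT, 29.9 and 20.5 after cold and 37.1 and 25.1 after CL. Ggps1, which leads away from sterols to the geranylgeranyl group put on proteins, stood at 42.1 and 69.3 CPM at RT, 48.6 and 39.7 after cold and 49.9 and 36.03 after CL. Idi1 and Fdps were low in every treated library, and the Ggps1 libraries of the 3 groups overlap. Fdps changed on the log2 scale by -3.27 ± 0.39, edgeR adjusted p = 0.00138 after cold and by -2.93 ± 0.40, edgeR adjusted p = 0.011 after CL. Idi1 changed by -2.81 ± 0.44, edgeR adjusted p = 0.00466 after cold, and its value after CL, -2.14 ± 0.45, edgeR adjusted p = 0.0633, missed the threshold but passed it with the replicate number as a block (edgeR adjusted p = 0.029), a fit that uses that libraries with the same number come from one experiment and in which 2.66% of all genes passed. The Ggps1 change was -0.14 ± 0.16, edgeR adjusted p = 0.592 after cold, and 2 SE on either side span -0.46 to 0.17.

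The 3 enzymes that commit farnesyl units to sterol and close the rings fell after both treatments. Fdft1, squalene synthase, stood at 84.9 and 68.3 CPM at RT, 15.4 and 13.6 after cold and 18.2 and 19.3 after CL. Sqle, squalene epoxidase and a rate-limiting step of the late pathway, stood at 139 and 126 CPM at RT, 17.1 and 12.8 after cold and 15.1 and 19.6 after CL. Lss, lanosterol synthase, stood at 20.4 and 24.4 CPM at RT, 3.71 and 2.71 after cold and 4.22 and 2.62 after CL. All treated libraries of these 3 genes lie below the RT libraries. The log2 change of Sqle was -3.08 ± 0.30, edgeR adjusted p = 0.000597 after cold, and -2.71 ± 0.31, edgeR adjusted p = 0.00653 after CL. That of Lss was -2.69 ± 0.27 and -2.62 ± 0.32, and that of Fdft1 -2.36 ± 0.29 and -1.87 ± 0.31, all past the threshold.

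Lanosterol is then stripped of methyl groups and reduced to cholesterol. Cyp51, the lanosterol demethylase, stood at 76.7 and 73.5 CPM at RT, 26.7 and 17.8 after cold and 22.9 and 23.6 after CL. Tm7sf2, a sterol reductase, stood at 18.3 and 31.04 CPM at RT, 1.34 and 1.36 after cold and 1.06 and 0.655 after CL. Msmo1, the methylsterol oxidase, stood at 139.6 and 116 CPM at RT, 17.3 and 17.97 after cold and 26.1 and 28.6 after CL. Tm7sf2 was the member with the largest fall on the log2 scale in both comparisons, -3.96 ± 0.28, edgeR adjusted p = 0.000195 after cold and -4.66 ± 0.38, edgeR adjusted p = 0.00133 after CL. The CL libraries hold 6 counts of Tm7sf2 together against 189 at RT, a ratio of 27.8 when the counts of the 2 libraries of a group are pooled and divided by their pooled totals, with an exact 95% interval of 12.5 to 76.7 that covers counting error only. Msmo1 changed by -2.79 ± 0.29, edgeR adjusted p = 0.000745 after cold, and Cyp51 by -1.69 ± 0.26, edgeR adjusted p = 0.00434.

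Nsdhl, the dehydrogenase that acts with MSMO1 in removing methyl groups, stood at 121 and 198 CPM at RT, 16.9 and 15.3 after cold and 21.4 and 18.3 after CL. Its 2 RT libraries differ little beside the distance to the treated libraries, and it had the smallest p among the members after cold (-3.12 ± 0.15, edgeR adjusted p = 5.36e-05) and after CL (-2.76 ± 0.16, edgeR adjusted p = 0.000334). Sc5d, a sterol desaturase, stood at 239 and 243 CPM at RT, 45.8 and 33.3 after cold and 49.00 and 59.3 after CL. Dhcr7, which makes cholesterol from its last precursor in one branch of the pathway, stood at 40.2 and 40.5 CPM at RT, 9.72 and 8.90 after cold and 8.42 and 7.67 after CL. Their log2 changes were -2.50 and -2.04 after cold and -1.94 and -2.15 after CL, each past the threshold. Hsd17b7, the sterol ketoreductase, stood at 30.1 and 31.8 CPM at RT, 16.3 and 13.1 after cold and 14.7 and 11.2 after CL, with a log2 change of -0.99 ± 0.22, edgeR adjusted p = 0.0216 after cold, and -1.12 ± 0.25, edgeR adjusted p = 0.0714 after CL, where the block gave a call (edgeR adjusted p = 0.0329). Ebp, the sterol isomerase, was the other enzyme of the main line without a call, at 92.6 and 139.5 CPM at RT, 83.1 and 80.1 after cold and 103 and 87.7 after CL (-0.33 ± 0.16, edgeR adjusted p = 0.21 after cold).

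The genes that control the pathway moved in part. Srebf1 encodes an SREBP that acts mostly on fatty acid genes, and it stood at 139 and 139 CPM at RT, 26.7 and 25.6 after cold and 37.1 and 28.00 after CL. Srebf2 encodes the SREBP that acts mostly on sterol genes, and it stood at 114 and 161 CPM at RT, 34.6 and 27.02 after cold and 41.2 and 48.00 after CL. Both fell after cold (log2 change -2.31 ± 0.22 and -1.998 ± 0.20) and after CL (-1.95 ± 0.23 and -1.35 ± 0.20), with edgeR adjusted p from 0.000597 to 0.0133. Insig1, the INSIG that SREBP itself switches on, stood at 109.5 and 79.3 CPM at RT, 27.7 and 27.1 after cold and 34.4 and 60.99 after CL and fell after cold (-1.75 ± 0.38, edgeR adjusted p = 0.0201) without passing the threshold after CL (-0.79 ± 0.39, edgeR adjusted p = 0.427). Insig2 and Scap overlapped between groups, with log2 changes after cold of -0.28 ± 0.18 and -0.16 ± 0.18.

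Transport and efflux genes did not follow the enzymes as a group in ASC1-like cells. Stard4, a cytosolic sterol carrier and SREBP target, stood at 33.2 and 25.98 CPM at RT, 9.61 and 7.20 after cold and 15.03 and 12.1 after CL and fell after cold (-1.82 ± 0.30, edgeR adjusted p = 0.00613). Soat1, which stores cholesterol as ester, stood at 17.1 and 29.6 CPM at RT, 32.3 and 33.3 after cold and 34.6 and 25.3 after CL, and rose after cold (0.71 ± 0.17, edgeR adjusted p = 0.0296). Abcg1, which exports cholesterol to lipoproteins, stood at 5.07 and 2.13 CPM at RT, 13.9 and 16.7 after cold and 9.40 and 5.41 after CL and rose after cold (1.83 ± 0.40, edgeR adjusted p = 0.0197). The RT and cold libraries of Soat1 and Abcg1 do not overlap. Lpcat3, an enzyme of membrane phospholipids and a liver X receptor target, stood at 85.9 and 113 CPM at RT, 66.5 and 64.4 after cold and 52.9 and 39.6 after CL and fell after CL (-0.91 ± 0.17, edgeR adjusted p = 0.035). Abca1, the exporter to lipid-poor apolipoproteins, stood at 50.3 and 55.8 CPM at RT, 71.2 and 82.6 after cold and 79.4 and 52.5 after CL (0.65 ± 0.21, edgeR adjusted p = 0.0795 after cold). Npc2, which hands cholesterol out of lysosomes together with NPC1, showed a wide error after cold (1.66 ± 0.66, edgeR adjusted p = 0.137). Npc1, Mylip, Nr1h2 and Nr1h3 passed the threshold in neither comparison, with log2 changes from -0.55 to 0.31.

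With each library left out in turn, 19 of the 24 calls after cold were made in all 4 fits. The other 5 were Hsd17b7, Insig1, Stard4, Soat1 and Abcg1, and the call of Soat1 was lost in each of the 4 (edgeR adjusted p = 0.0881 to 0.165). Hsd17b7 and Insig1 were lost without RT replicate 1 (edgeR adjusted p = 0.178 and 0.144), cold replicate 1 (0.0902 and 0.114) or cold replicate 2 (0.141 and 0.0989). Stard4 was lost without RT replicate 1 or cold replicate 2 (0.0542 and 0.0521), and Abcg1 without cold replicate 1, RT replicate 2 or cold replicate 2 (0.0554 to 0.118). After CL, 9 of 19 calls were made in all 4 fits, and these are the 9 made without CL replicate 1. The 9 are Acss2, Acat2, Pmvk, Sqle, Lss, Tm7sf2, Nsdhl, Dhcr7 and Srebf1.

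The ASC1-like class joins 2 clusters whose shares change with treatment. Cluster 1 is led by Cxcl10, Cxcl9, Ccl2 and Timp1, genes of inflammation and tissue remodelling, and held 3.81% and 5.73% of the class at RT, 80.2% and 83.0% after cold and 48.4% and 19.8% after CL. Cluster 3, led by Smoc2, Cxcl14 and Hsd11b1, held the rest. Of the 9 ASC1 markers, 8 were raised in cluster 3 but only 4 in cluster 1, and no ASC2 or ASC3 marker was raised in either. Most ASC1-like cells after cold thus carry the name on 4 of the 9 markers. Within cluster 3 the synthesis sum was 2129 and 2032 CPM at RT, 580 and 455 CPM after cold and 611 and 498 CPM after CL, and 20 members passed the test in each comparison, where 3.24% of all genes passed after cold and 1.36% after CL. Within cluster 1 it was 1232 and 1910 CPM at RT, 474 and 388 CPM after cold and 529 and 477 CPM after CL, where the RT libraries hold 53 and 64 cells and 10 members passed after cold and 2 after CL, beside 0.647% and 0.192% of all genes. Both clusters were thus lower in every treated library than in either RT library.

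Other RNA moved with treatment in the ASC1-like class. The 7 adipocyte genes (Adipoq, Plin1, Cidec, Ucp1, Cfd, Car3 and Fabp4) summed to 18.2 to 43.4 CPM at RT, 1013 to 1229 CPM after cold and 337 to 1237 CPM after CL, with none of the 7 at 0 in any group. Fabp4 and Car3 were set as genes the cells lack when the authors subtracted cell-free mRNA. Sums of this list, here and in the classes below, therefore also depend on that correction of each library. The 6 cell cycle genes summed to 12.0 to 14.8 CPM at RT, 118 to 197 CPM after cold and 29.7 to 136 CPM after CL. The 7 macrophage genes lay between 20.04 and 23.6 CPM in all 3 groups, and the 5 erythroid genes between 2.73 and 88.9 CPM. The part of this RNA in the fall of the synthesis genes was not tested.

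Cold and CL were also compared with each other in ASC1-like cells. No member passed the edgeR test, where 0.493% of all genes passed, and DESeq2 called none. An unadjusted edgeR p under 0.05 was reached by 6 members, but the share of all genes at that threshold was not counted. The largest differences among the synthesis enzymes were those of Msmo1 (-0.73 ± 0.30, edgeR adjusted p = 0.377), lower after cold, and Hmgcs1 (-0.72 ± 0.35, edgeR adjusted p = 0.471). For Abcg1 the difference was 1.09 ± 0.39, edgeR adjusted p = 0.309, with both cold libraries above both CL libraries. The interval of 2 SE for Sqle, from -1.003 to 0.26, is an example of the differences that 2 libraries a group could not resolve.

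With the filter on low counts and no replicate block, edgeR called no member in the other stromal and vascular classes in either comparison. With the replicate number as a block it called few, and without the filter it called members in each of these classes, as counted in the last section. In ASC2-like cells, the stromal class marked by Pi16 and Dpp4, the synthesis sum was 609 and 651 CPM at RT, 491 and 387 CPM after cold and 441 and 323 CPM after CL. Of 33 members tested, 14 reached an unadjusted p under 0.05 after cold and 16 after CL, and DESeq2 called 0 in both. At the adjusted threshold 0.667% and 0.0365% of all genes passed the edgeR test. The share of all genes at the unadjusted threshold was not counted, so the 14 and 16 cannot be set against it. The member with the smallest p after cold was Pmvk (-1.22 ± 0.24, edgeR adjusted p = 0.0631), and that with the largest change was Sqle (-1.60 ± 0.43, edgeR adjusted p = 0.18). Without RT replicate 2 3 members passed after cold, and after CL 1 passed without either RT replicate and without CL replicate 2. Nr1h3, which encodes the liver X receptor LXRα, was higher in both cold libraries than at RT (0.79 ± 0.19, edgeR adjusted p = 0.146). With the block 2 members passed after cold, both lower, Pmvk and Srebf1 (edgeR adjusted p = 0.0184 and 0.0178), where 1.97% of all genes did, and 0 after CL. Adipocyte genes summed to 25.7 to 54.01 CPM at RT, 119.8 to 368 CPM after cold and 109 to 434 CPM after CL in ASC2-like cells, with none at 0, and cell cycle genes to 11.9 to 14.1, 35.6 to 102 and 21.6 to 85.98 CPM, and their part was not tested.

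In ASC3-like cells, the stromal class marked by Gdf10 and C7, the synthesis sum was 611 and 690 CPM at RT, 510 and 445 CPM after cold and 474 and 317 CPM after CL. All cold and CL libraries lie below the RT libraries, by a smaller margin than in ASC1-like cells. Of 33 members tested, 10 and 9 reached an unadjusted p under 0.05 and DESeq2 called 0. At the adjusted threshold 0.057% and 0.0095% of all genes passed the edgeR test, and the share at the unadjusted threshold was not counted. Sqle changed by -2.10 ± 0.44, edgeR adjusted p = 0.307 after CL. With the block it was called after CL (edgeR adjusted p = 0.0228) and Nr1h3 was called after cold, higher (log2 change 1.09, edgeR adjusted p = 0.0475), 1 member each where 0.513% of all genes passed. Adipocyte genes summed to 56.1 to 78.9 CPM at RT, 62.7 to 765 CPM after cold and 161 to 322 CPM after CL in ASC3-like cells, and cell cycle genes to 7.64 to 17.3, 59.1 to 88.8 and 37.2 to 92.4 CPM, and their part was not tested.

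Mural-like cells, the pericytes and smooth muscle of vessels, had the next highest level and the next largest difference of the synthesis sum among the classes tested. Their synthesis sum was 1337 and 1006 CPM at RT, 534 and 459 CPM after cold and 558 and 435 CPM after CL, 2.36-fold lower after both. Of 33 members tested, 16 reached an unadjusted p under 0.05 after cold and 18 after CL, and DESeq2 called 5 and 4, while edgeR called 0 where 0.112% and 0% of all genes passed. With an RT library left out edgeR called some members. The share of all genes called was not counted for those fits or for DESeq2, nor was the share at the unadjusted threshold. Msmo1 stood at 179 and 135 CPM at RT, 23.9 and 40.6 after cold and 29.4 and 34.3 after CL (-2.24 ± 0.35, edgeR adjusted p = 0.0662 after cold). Fdps stood at 192 and 101 CPM at RT, 39.6 and 25.1 after cold and 42.4 and 21.7 after CL (-2.21 ± 0.44, edgeR adjusted p = 0.113 after cold). The 2 libraries of each treatment lie below the 2 RT libraries for both genes. With the replicate number as a block 4 members were called after cold, where 0.683% of all genes passed, and 1 after CL, where 0.153% did, all lower. The 4 were Hmgcs1, Idi1, Fdps and Msmo1 (edgeR adjusted p = 0.0116 to 0.0458) and the 1 was Fdps (0.0258). Adipocyte genes summed to 6147 to 6289 CPM in mural-like cells at RT and 6807 to 10970 CPM after treatment. Cell cycle genes summed to 20.7 to 23.6 CPM at RT, 44.2 to 144 CPM after cold and 31.9 to 263 CPM after CL, and the part of both lists in these values was not tested.

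In endothelial (VEC-like) cells no member passed the edgeR test with the filter on low counts, with or without the block. Without that filter members were called after both treatments, as counted in the last section. The synthesis sum was 443 and 497 CPM at RT, 433 and 394 CPM after cold and 453 and 354 CPM after CL, with the CL and RT libraries overlapping and the cold libraries just below RT. Abca1 stood at 40.7 and 62.7 CPM at RT, 104 and 95.2 after cold and 95.4 and 95.03 after CL (0.99 ± 0.18, edgeR adjusted p = 0.137 after cold). Abcg1 stood at 8.64 and 15.5 CPM at RT, 20.2 and 27.6 after cold and 18.99 and 21.7 after CL (1.08 ± 0.32, edgeR adjusted p = 0.333 after cold). Both genes were higher in every treated library than in either RT library, without passing the threshold. Insig1 had the smallest p after cold (-1.58 ± 0.28, edgeR adjusted p = 0.135). Of 31 members tested, 9 and 6 reached an unadjusted p under 0.05, a threshold at which the share of all genes was not counted. At the adjusted threshold DESeq2 called 0 and edgeR 0, where 0.175% and 0% of all genes passed in edgeR. Without CL replicate 2 1 member passed after CL. The class joins 6 clusters in unequal shares. The CL libraries hold 5570 and 291 VEC-like cells, and cluster 5, led by Cidea and Cox8b with a median of 565 UMIs per cell, held 53.6% and 19.2% of them, against 6.71% and 34.6% at RT and 14.1% and 10.5% after cold. Cluster 6, led by Ccdc85a and Aplnr, held 62.3% and 32.7% at RT, 47.7% and 33.3% after cold and 22.8% and 12.4% after CL. The part of these shares was not tested. The list of adipocyte genes, whose member Fabp4 endothelium also expresses, summed to 33630 CPM or more in every group. Erythroid genes summed to 2190 to 5469 CPM at RT, 4928 to 5989 CPM after cold and 5563 to 10090 CPM after CL. The part of both lists in these values was not tested.

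**Figure D2:**
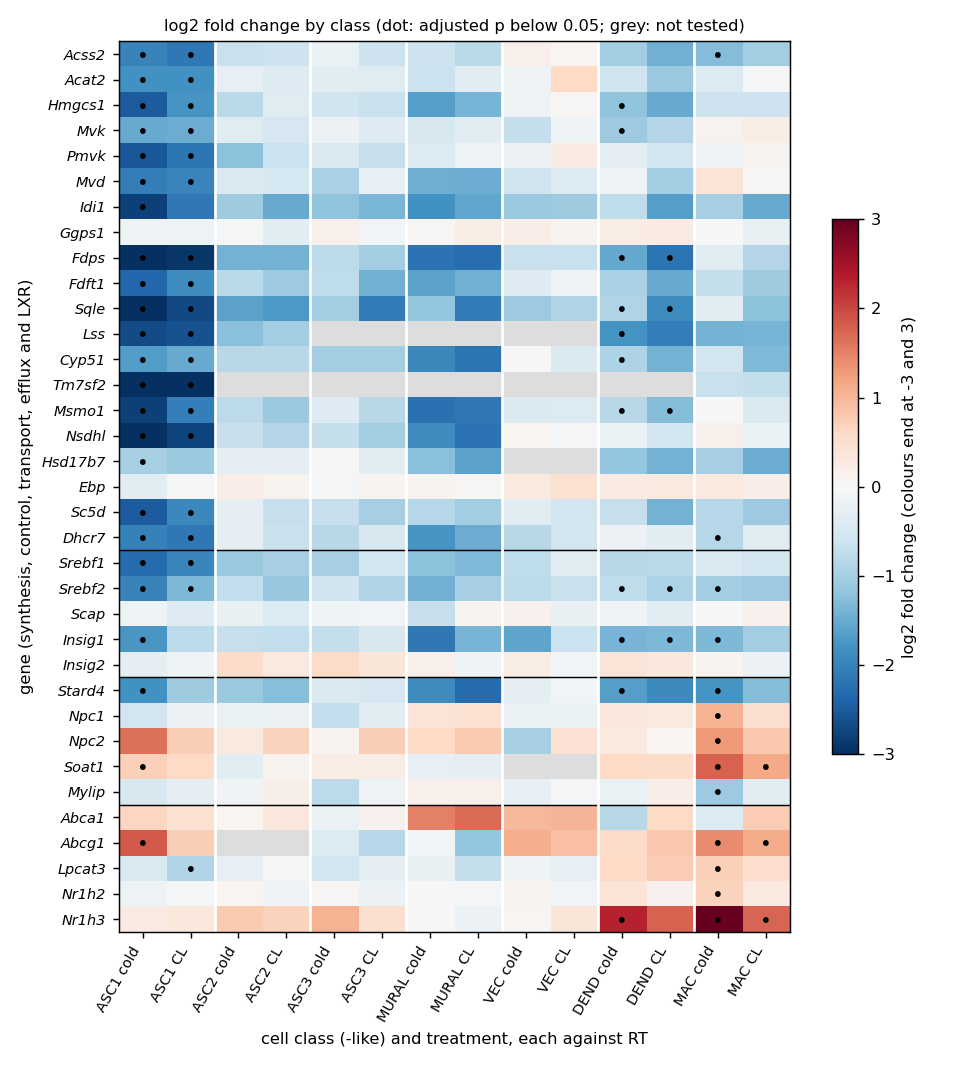
Log2 change of each of the 35 members (rows, by role) against RT after cold and after CL in the 7 classes tested (columns), with calls at adjusted p under 0.05 marked. Calls stand in the ASC1-like columns for 24 and 19 members, in the MAC-like columns for 13 and 3 and in the DEND-like columns for 11 and 5, and the ASC2-, ASC3-, mural- and VEC-like columns hold none. The fits shown are those without a replicate block and with the filter on low counts.

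Whether the response of ASC1-like cells differs from that of ASC2-like and of VEC-like cells was tested as a class by treatment term with the library as a block. ASC3-, mural- and Schwann-like cells were not compared with ASC1-like cells in this way. Against ASC2-like cells 23 members differed after cold, with a lower log2 change in ASC1-like cells for 21 of them, where 7.51% of all genes differed. After CL 11 differed, all lower, where 1.16% of all genes did. For Sc5d the response of ASC1-like cells minus that of ASC2-like cells was -2.28 ± 0.18, edgeR adjusted p = 3.65e-06 after cold, and for Nsdhl it was -2.44 ± 0.21, edgeR adjusted p = 5.66e-06. Fdps, with -1.94 ± 0.21, edgeR adjusted p = 4.12e-05, and Srebf2, with -1.30 ± 0.18, edgeR adjusted p = 0.000386, were further examples after cold. Insig2 and Ebp, which passed in neither class, are among the 21. The log2 change of Insig2 was -0.28 in ASC1-like and 0.55 in ASC2-like cells, and that of Ebp -0.33 and 0.19. For Ebp the difference was -0.55 ± 0.15, edgeR adjusted p = 0.0346. Npc2 and Soat1 were the 2 with a higher log2 change in ASC1-like cells. DESeq2 called 13 and 4, and with each library left out in turn 12 of the 23 and 4 of the 11 calls were made in every fit. The fewest calls were 15 after cold, without RT replicate 1, and 6 after CL, without RT replicate 1 or CL replicate 2, with 7 after CL without RT replicate 2.

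Against VEC-like cells 15 members differed after cold, 14 of them lower in ASC1-like cells, where 3.94% of all genes differed. After CL 7 differed, all lower, where 0.328% of all genes did. Nsdhl had the largest called difference after both treatments (-3.21 ± 0.29, edgeR adjusted p = 0.000448 after cold). Npc2 went the other way, with 2.59 ± 0.40, edgeR adjusted p = 0.00544, a call that was not made without cold replicate 1 or 2 (edgeR adjusted p = 0.0771 and 0.0605). With each library left out in turn, 5 of the 15 calls and none of the 7 were made in every fit. After cold the count was 6 without RT replicate 1 and 7 without either cold replicate. After CL no member was called when RT replicate 1 was left out, 3 were called without CL replicate 1 and 15 without CL replicate 2. DESeq2 called 11 and 3 members.

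In macrophage-like cells members of all 4 roles changed after cold, in both directions. After cold 7 members rose and 6 fell, where 17.5% of all genes rose and 16.1% fell, so that the share of members called differs little from that of all genes. Those that rose were Nr1h3, Soat1, Abcg1, Npc2, Npc1, Lpcat3 and Nr1h2, 4 of the 5 genes of efflux and liver X receptors among them. Those that fell were Stard4, Insig1, Acss2, Mylip, Srebf2 and Dhcr7, of which only Acss2 and Dhcr7 are synthesis enzymes. DESeq2 called 12.

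Nr1h3 stood at 13.1 and 8.03 CPM at RT, 119 and 86.98 after cold and 46.8 and 23.5 after CL (3.37 ± 0.35, edgeR adjusted p = 0.00044 after cold, and 1.75 ± 0.35, edgeR adjusted p = 0.0379 after CL). Soat1 stood at 56.1 and 38.8 CPM at RT, 158 and 151 after cold and 125 and 83.1 after CL (1.78 ± 0.22, edgeR adjusted p = 0.000943 after cold, and 1.14 ± 0.22, edgeR adjusted p = 0.0343 after CL). Stard4 stood at 31.1 and 15.3 CPM at RT, 8.28 and 4.39 after cold and 8.46 and 10.04 after CL (-1.76 ± 0.40, edgeR adjusted p = 0.0107 after cold). No cold library overlapped an RT library for these 3 genes. Abcg1 stood at 49.6 and 29.9 CPM at RT, 95.3 and 105 after cold and 100.3 and 69.7 after CL (1.41 ± 0.24, edgeR adjusted p = 0.0036 after cold, and 1.11 ± 0.24, edgeR adjusted p = 0.0493 after CL). Abca1 was the exporter without a call, with -0.40 ± 0.22, edgeR adjusted p = 0.189 after cold. The calls of Npc1, Npc2, Soat1, Abcg1 and Nr1h3 after cold were made in all 4 fits with a library left out, but the count was 5 without RT replicate 1 and 6 without cold replicate 2. Stard4 was not called without either of these (edgeR adjusted p = 0.121 and 0.0592).

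After CL the 3 members called in MAC-like cells were Nr1h3, Soat1 and Abcg1, all higher, where 1.98% of all genes rose and 1.07% fell. None was called with either RT replicate or CL replicate 1 left out, 12 were called when CL replicate 2 was left out, and DESeq2 called 9. The edgeR adjusted p of the 3 genes ran from 0.100 to 0.206 in the fits that lost them. With the block 9 members were called, 4 higher and 5 lower, where 5.7% of all genes passed. The 6 it added were Idi1, Fdps, Sqle, Cyp51 and Insig1, all lower, and Abca1, higher (edgeR adjusted p = 0.0252 to 0.0469).

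The MAC-like class also changes its makeup. MAC2-like cells, marked by Folr2 and Cd163, were 706 of 839 and 660 of 835 MAC-like cells at RT and 130 of 3121 and 52 of 1993 after cold, when MAC1-like cells, marked by Trem2 and Gpnmb, and MAC3-like cells made up the rest. Nr1h3 was 75.1 and 45.8 CPM at RT and 94.5 and 83.4 after cold in MAC1-like cells, 9.12 and 2.55 CPM at RT and 19.2 and 10.8 after cold in MAC2-like cells and 15.2 and 13.9 CPM at RT and 159 and 97.4 after cold in MAC3-like cells. The cold libraries lie above the RT libraries within each of the 3, with the smallest ratio in MAC1-like cells, which number 25 and 44 at RT. Within MAC2-like cells Soat1 was 44.1 and 28.9 CPM at RT and 63.9 and 94.9 after cold, and within MAC1-like cells 222 and 69.5 CPM at RT and 160.3 and 158 after cold, where the RT libraries lie on both sides of the cold ones. After CL MAC2-like cells were 1271 of 2900 and 506 of 1002 MAC-like cells and MAC1-like cells 1048 and 233, against 25 and 44 at RT. Nr1h3 after CL was 65.4 and 32.2 CPM in MAC1-like cells, both below the higher RT library, 20.5 and 13.1 CPM in MAC2-like cells and 49.7 and 30.6 CPM in MAC3-like cells, above the RT libraries in these 2. The part of the changed makeup in the calls was not tested. Adipocyte genes summed to 93.5 to 169 CPM at RT, 508 to 530 CPM after cold and 141 to 322 CPM after CL in MAC-like cells, and their part was not tested either. In the fit with the block 17 members were called after cold, the 13 and, all lower, Hmgcs1, Idi1, Lss and Sc5d (edgeR adjusted p = 0.0193 to 0.0423), where 35.7% of all genes passed.

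In dendritic-like cells, which present antigen, some synthesis and control genes were lower after both treatments and Nr1h3 was higher after cold. After cold 10 members fell and 1 rose, where 7.54% of all genes fell and 5.89% rose. Of the 10, 7 were synthesis enzymes (Hmgcs1, Mvk, Fdps, Sqle, Lss, Cyp51 and Msmo1), and the others were Srebf2, Insig1 and Stard4. Nr1h3 stood at 6.36 and 2.70 CPM at RT, 29.3 and 23.2 after cold and 23.4 and 12.02 after CL (2.30 ± 0.38, edgeR adjusted p = 0.00981 after cold). Lss stood at 9.05 and 6.27 CPM at RT, 2.75 and 2.42 after cold and 2.09 and 2.02 after CL (-1.79 ± 0.35, edgeR adjusted p = 0.0176 after cold). Stard4 stood at 52.1 and 25.7 CPM at RT, 14.98 and 14.1 after cold and 12.8 and 10.7 after CL (-1.66 ± 0.30, edgeR adjusted p = 0.0136 after cold). The cold libraries of the 3 genes do not overlap those at RT. The subclasses were not alike. After cold the synthesis sum went from 795 and 582 CPM to 407 and 349 CPM in DEND1-like cells and from 861 and 598 CPM to 571 and 439 CPM in DEND2-like cells, but in DEND3-like cells it was 1133 and 985 CPM at RT and 1126 and 988 CPM after cold, in 43 and 31 cells at RT. In these cells the CL libraries, at 784 and 614 CPM, lay below RT. The calls of Insig1 and Nr1h3 were made in all 4 fits with a library left out, and the count of members called fell to 2 without RT replicate 1 and to 3 without cold replicate 1 or without cold replicate 2, fits in which Lss (edgeR adjusted p = 0.129 to 0.163) and Stard4 (edgeR adjusted p = 0.0545 to 0.0653) were not called. DESeq2 called 10.

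After CL 5 members fell in DEND-like cells and none rose, where 0.295% of all genes fell and 0.377% rose. Fdps stood at 134 and 105 CPM at RT, 61.1 and 36.1 after cold and 33.6 and 26.4 after CL (-2.19 ± 0.27, edgeR adjusted p = 0.0156 after CL). Sqle stood at 25.9 and 31.2 CPM at RT, 19.9 and 15.4 after cold and 9.03 and 8.39 after CL (-1.88 ± 0.25, edgeR adjusted p = 0.0179 after CL). Insig1 stood at 80.2 and 69.6 CPM at RT, 33.8 and 33.4 after cold and 31.2 and 35.4 after CL (-1.34 ± 0.20, edgeR adjusted p = 0.0318 after CL). Msmo1 and Srebf2 were the other 2. Leaving out RT replicate 1 gave a count of 0 and leaving out CL replicate 1 a count of 1, whereas 8 were called without RT replicate 2, 9 without CL replicate 2, and 13 by DESeq2. With the block 14 members were called, where 2.41% of all genes passed. The 9 it added were Hmgcs1, Mvd, Idi1, Fdft1, Lss, Cyp51, Sc5d and Stard4, lower, and Nr1h3, higher (edgeR adjusted p = 0.00845 to 0.0486). After cold the block added Idi1, Fdft1, Sc5d and Srebf1, lower, and Soat1, higher, to the 11 calls, and 18.7% of all genes passed in that fit. Adipocyte genes summed to 15.3 to 18.5 CPM at RT, 55.8 to 55.9 CPM after cold and 84.8 to 153 CPM after CL in DEND-like cells, with 1 of the 7 at 0 at RT. Cell cycle genes summed to 253 to 261 CPM at RT, 421 to 483 CPM after cold and 220 to 493 CPM after CL. Macrophage genes summed to 7629 to 12130 CPM at RT, 9438 to 9721 CPM after cold and 13710 to 15290 CPM after CL in these cells, and their part was not tested.

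Synthesis was set against efflux by the log2 ratio of the summed CPM of the 20 enzymes to that of Abca1 plus Abcg1, given here without a test. In ASC1-like cells the ratio was 5.18 ± 0.08 (SD, n = 2) at RT, 2.26 ± 0.37 after cold and 2.88 ± 0.30 after CL, a change of -2.92 and -2.30. The efflux sum behind it was 55.4 and 58.0 CPM at RT, 85.1 and 99.3 CPM after cold and 88.8 and 57.9 CPM after CL, so most of the change in the ratio comes from the synthesis sum. In mural-like cells the ratio changed by -1.74 and -1.30, in DEND-like cells by -1.08 and -1.88 and in VEC-like cells by -1.18 and -1.12. In VEC-like cells the efflux sum was 49.3 and 78.2 CPM at RT, 125 and 123 CPM after cold and 114 and 117 CPM after CL, 1.94-fold and 1.81-fold higher. In MAC-like cells the ratio changed by -0.64 and -1.28, in ASC2-like cells by -0.52 and -0.87 and in ASC3-like cells by -0.16 and -0.60. In these C57BL/6J libraries the mean ratio was lower after both treatments in the 7 classes tested, but 2 classes depended on single libraries. In mural-like cells the CL libraries lay at 3.07 and 4.81, with efflux sums of 66.4 and 15.5 CPM, and the change after CL was -0.43 without CL replicate 1 and -2.16 without CL replicate 2. In ASC3-like cells the change after cold was less than 1 SD of the RT libraries and became 0.04 without cold replicate 2, -0.36 without cold replicate 1, -0.01 without RT replicate 1 and -0.31 without RT replicate 2, and the change after CL was -0.37 without CL replicate 2. Classes not tested went both ways. The mean ratio was lower after both treatments in DIFF-like (-0.46 and -0.57), DEND4-like (-2.69 and -1.07) and T cell-like cells (-0.31 and -0.97). Whether these changes depend on single libraries was not checked. The DIFF-like synthesis sum was 1199 and 1464 CPM at RT, 653.4 and 607.5 CPM after cold and 1041 and 716.5 CPM after CL. In other classes, with 26 to 1561 cells a library, the mean ratio was higher after cold in Schwann-like (0.25), neutrophil-like (0.81), NK-like (0.70), monocyte-like (0.73) and B cell-like cells (0.39), and higher after CL in neutrophil-like cells (0.93, or 0.55 without CL replicate 2). In Schwann- and NK-like cells the direction after CL turned on 1 library, since the changes of 0.64 and 1.54 became -0.50 and -0.16 without CL replicate 2 and 1.79 and 3.23 without CL replicate 1. After cold the change was 0.01 in Schwann-, 0.18 in monocyte- and 0.11 in B cell-like cells without cold replicate 1, and 0.49, 1.28 and 0.67 without cold replicate 2, and without RT replicate 1 it was 0.46 in NK- and 0.38 in monocyte-like cells.

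Fatty acid genes under SREBP control fell beside the sterol genes in ASC1-like cells. Of 11 such genes 9 fell after cold and 5 after CL, where 5.55% and 0.661% of all genes fell, with a median log2 change of -1.19 and -1.15. Fads2, a desaturase of long fatty acids, stood at 18.3 and 21.6 CPM at RT, 5.64 and 4.05 after cold and 4.22 and 4.10 after CL (-1.94 ± 0.26, edgeR adjusted p = 0.00237 after cold). Scd2, which makes monounsaturated fatty acids, changed by -1.93 ± 0.41, edgeR adjusted p = 0.0185 after cold, and its partner Scd1 by -2.19 ± 0.34, edgeR adjusted p = 0.0161 after CL. Of 12 other genes of sterol handling, Ch25h, which makes an oxidised sterol, rose after cold (1.56 ± 0.31, edgeR adjusted p = 0.0136), Gramd1b and Tmem97 fell after cold and Tmem97 fell after CL. In MAC-like cells 6 of 11 sterol handling genes rose after cold and 2 fell, where 17.5% and 16.1% of all genes did. Nceh1 and Lipa, which free cholesterol from its esters, rose (2.20 ± 0.23, edgeR adjusted p = 0.000448, and 1.53 ± 0.21, edgeR adjusted p = 0.0014). Ch25h and Cyp27a1, which make oxidised sterols, fell (-2.85 ± 0.42, edgeR adjusted p = 0.00183, and -1.30 ± 0.18, edgeR adjusted p = 0.00141). After CL 3 of the 11 rose and none fell, where 1.98% and 1.07% of all genes did. In DEND-like cells 5 of 9 fatty acid genes fell after cold, and 3 of 11 sterol handling genes rose and 1 fell, where 7.54% of all genes fell and 5.89% rose. In MAC-like cells 2 of 9 fatty acid genes, Fads1 and Scd1, fell after cold, which is near the 16.1% of all genes that fell. No gene of either list passed in ASC2-, ASC3-, mural- or VEC-like cells in the main edgeR fits, where 0 to 6 genes per list reached an unadjusted p under 0.05 and DESeq2 called 0 to 2. The fatty acid genes of VEC-like cells went the other way after CL, with 7 of 10 higher, 3 lower and a median log2 change of 0.84. In that comparison 6 reached an unadjusted edgeR p under 0.05 and DESeq2 called 2, and the share of all genes was not counted for either.

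In the Adrb1 fl/fl line the deleted gene was checked first. In ASC1-like cells Adrb1 had 12.0 counts (6.27 CPM) at RT and 44.2 counts (3.81 CPM) after cold in WT mice, and 0 and 2.98 counts (0.399 CPM) in KO mice, where a count of 0 allows up to 1.95 CPM (3 counts). In ASC2- and ASC3-like cells no library of this line held over 3 counts, so the deletion could not be checked there, and the labels do not say which part of the transcript the deletion removes. The synthesis sum of ASC1-like cells was 790 CPM at RT and 474 CPM after cold in WT mice, and 1085 and 456 CPM in KO mice. With 1 library per genotype and temperature there is no spread within a group, and no test was run. Both cold libraries lay below both RT libraries for 21 of 35 members and 14 of 20 enzymes, where 38.9% of all genes did so. Sqle stood at 35.5 CPM at RT and 21.3 after cold in WT mice, and 53.6 and 19.9 in KO mice. Nsdhl stood at 48.4 CPM at RT and 16.8 after cold in WT mice, and 51.7 and 17.1 in KO mice. Srebf2 stood at 61.4 CPM at RT and 34.4 after cold in WT mice, and 84.8 and 42.4 in KO mice. All 3 genes were lower after cold than at RT in both genotypes. In the other stromal and vascular classes of this line the sums were higher after cold, from 351 to 449 CPM in WT and 376 to 430 CPM in KO ASC2-like cells, from 457 to 477 CPM and 436 to 539 CPM in mural-like cells and from 360 to 445 CPM and 340 to 442 CPM in VEC-like cells. The efflux sum of this line was lower after cold, where that of C57BL/6J mice was higher, in ASC1-like (74.4 to 47.4 CPM in WT and 110.0 to 46.9 CPM in KO), MAC-like (221 to 104 CPM and 307 to 85.8 CPM), DEND-like (75.8 to 38.5 CPM and 86.5 to 43.1 CPM) and VEC-like cells (121 to 114 CPM and 153 to 104 CPM). In ASC1-like cells Abca1 stood at 72.8 CPM at RT and 37.5 after cold in WT mice, and 109 and 34.8 in KO mice, while Abcg1 stood at 1.57 CPM at RT and 9.86 after cold in WT mice, and 1.30 and 12.1 in KO mice. The log2 ratio of synthesis to efflux went from 3.41 to 3.32 in WT and from 3.30 to 3.28 in KO ASC1-like cells. It was higher after cold in ASC2-like (0.65 to 2.67 and 0.58 to 2.76), ASC3-like (1.15 to 3.01 and 1.23 to 3.21), VEC-like (1.58 to 1.97 and 1.15 to 2.08), MAC-like (0.86 to 2.02 and 0.19 to 2.31) and DEND-like cells (3.22 to 4.21 and 3.12 to 4.06), and lower in mural-like cells (4.65 to 4.30 and 4.03 to 3.97). The synthesis sum of DEND-like cells went from 704 to 711 CPM in WT and from 754 to 721 CPM in KO mice. In MAC-like cells Nr1h3 stood at 5.82 CPM at RT and 110.3 after cold in WT mice, and 5.24 and 95.1 in KO mice, higher after cold in both genotypes. The RT libraries of this line were made with another version of the kit than the cold ones, so kit and temperature cannot be told apart.

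Schwann-like cells, the glia of peripheral nerves, which need cholesterol for myelin, had the highest synthesis level at RT and a lower one after treatment. Their sum was 2280 and 2346 CPM at RT, 820 and 1096 CPM after cold and 847 and 1512 CPM after CL, in 64 to 144 cells a library. In the Adrb1 line it was 1502 and 848 CPM in WT mice and 1471 and 868 CPM in KO mice at RT and in the cold. In C57BL/6J mice the efflux sum was lower too, 139 and 129 CPM at RT, 33.9 and 63.0 CPM after cold and 69.5 and 25.2 CPM after CL. Adipocyte genes summed to 367 to 620.3 CPM at RT, 330.1 to 963 CPM after cold and 495 to 7547 CPM after CL in these cells. Macrophage genes summed to 29.7 to 262 CPM at RT, 2.62 to 13.3 CPM after cold and 14.0 to 17.0 CPM after CL, with 4, 3 and 5 of the 7 genes at 0 in both libraries of a group. Of the Schwann-like cells 23 of 92 and 21 of 133 at RT, 34 of 142 and 18 of 127 after cold and 25 of 64 and 15 of 144 after CL had doublet scores among the highest of their library. No test was fitted for this class, and the part of these values was not tested.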

How the data were processed

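Single-cell RNA-seq libraries of Lin+ and Lin- cells were analysed from 20 deposited matrices of estimated counts of UMIs, corrected by the authors, in which 97.2% to 99.6% of non-zero entries are not whole. Per the labels and the study's methods, the authors aligned reads to mm10, called cells and counted UMIs with Cell Ranger 3.0.1, and then subtracted cell-free mRNA with SoupX, using Fabp4 and Car3 as genes the cells should lack, which lowers those genes and changes all counts slightly. Cells with under 10% mitochondrial UMIs and under 15000 UMIs were kept, with under 4000 genes for Lin+ and over 100 genes for Lin- cells. Cells were clustered per fraction on 2000 variable genes without the members, the companion lists and the lists of other cells' RNA (30 components, 30 neighbours, alignment of 6 cohorts, Leiden resolution 1.0, giving 34 Lin- and 35 Lin+ clusters, Python 3.11.15 with leidenalg 0.10.2), and named from marker lists by thresholds set after seeing the data, so differences from the study's own clusters may come from these rebuilt names. No doublets were removed in the main analysis. As a check, the cells with the top 6% of simulated doublet scores in each library (5.33% to 6.01% of cells) were dropped. Counts were summed per class and library with at least 20 cells, rounded, and tested with edgeR 4.0.16 (quasi-likelihood, TMM factors, filterByExpr, R 4.3.3) over the 6 C57BL/6J libraries of a fraction, with Benjamini-Hochberg adjustment over all genes and a two-sided threshold of 0.05, after a check on simulated counts. Errors of log2 changes are standard errors. The 2 replicates of a group are separate pools of mice and differed by more than sampling noise (chi-square per degree of freedom 4.57 to 76.1 over 21 pairs). Per the study's methods, libraries of one replicate number come from the same experiment, so the number pairs them, and a fit with it as a block is given beside each result whose call it changes. The correlation of deviations of same-numbered libraries from their group means ran from -0.0788 to 0.369 over 21 pairs of groups, with 12 over 0.1. Alternatives were DESeq2 1.42.0, RLE factors, no filter on low counts, the replicate number as a block, thinned sums, cells with at least 1000 UMIs, Leiden resolution 0.5, each library left out and, added after seeing the data, each ASC1-like cluster alone and the removal of barcodes shared by both CL replicate 2 libraries. Values per library are given for members past the threshold in ASC1-like cells and for the 3 with the largest change in other classes, with other genes named for their role after their values were seen. The members and all gene lists were chosen with earlier results of these data known. Promoters came from a RefSeq table of GRCm38.p6, the assembly that mm10 denotes, with 29 of 35 members matched by symbol. Some genes of the pathway are not reported here.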

Additional observations from a re-analysis of the deposited data

Results flagged for a closer look

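The results below were picked out because the response to treatment differed between cell classes by a test of the difference itself, with the library as a block and the value given as the log2 change of ASC1-like cells minus that of the other class. Against ASC2-like cells 23 members differed after cold. The 3 largest called differences were Tm7sf2 (-2.76 ± 0.67, edgeR adjusted p = 0.0181), Nsdhl (-2.44 ± 0.21, edgeR adjusted p = 5.66e-06) and Sc5d (-2.28 ± 0.18, edgeR adjusted p = 3.65e-06). The Tm7sf2 call was not made without RT replicate 1, cold replicate 1 or cold replicate 2 (edgeR adjusted p = 0.081, 0.112 and 0.18). After CL 11 members differed, led by Nsdhl (-1.85 ± 0.22, edgeR adjusted p = 0.000887), Fdps (-1.58 ± 0.20, edgeR adjusted p = 0.00141) and Pmvk (-1.56 ± 0.20, edgeR adjusted p = 0.00141), which were called in every fit with a library left out.

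Against VEC-like cells 15 members differed after cold, with Nsdhl (-3.21 ± 0.29, edgeR adjusted p = 0.000448), Fdps (-2.63 ± 0.29, edgeR adjusted p = 0.00139) and Npc2 (2.59 ± 0.40, edgeR adjusted p = 0.00544) as the 3 largest. Npc2 lost its call without cold replicate 1 or cold replicate 2 (edgeR adjusted p = 0.0771 and 0.0605). After CL 7 members differed, led by Nsdhl (-2.78 ± 0.30, edgeR adjusted p = 0.00325), Pmvk (-2.31 ± 0.25, edgeR adjusted p = 0.00325) and Acat2 (-2.31 ± 0.39, edgeR adjusted p = 0.0343). Nsdhl and Pmvk were not called without RT replicate 1 (edgeR adjusted p = 0.102 and 0.149), nor Acat2 without RT replicate 1, CL replicate 1 or RT replicate 2 (edgeR adjusted p = 0.385, 0.454 and 0.137). The responses share their RT libraries, so the cold and CL differences are not independent of each other.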

How the results depend on the processing

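Of 1141 alternative values of the tests, levels and ASC1- and MAC-like ratios none reversed a direction. The levels among them are summed CPM and have no direction to reverse, so the tally says nothing of them. The change in the ratio of synthesis to efflux in ASC3-like cells after cold did change sign without cold replicate 2 (0.04 in place of -0.16). Those of Schwann- and NK-like cells after CL did so without CL replicate 2 (-0.50 and -0.16 in place of 0.64 and 1.54). In ASC1-like cells the count of members called stayed within 1.5 times 24 after cold and 19 after CL except within cluster 1 alone (10 and 2) and, after CL, without CL replicate 1. Without a filter on low counts the counts after cold and CL became 9 and 10 in ASC2-like, 3 and 5 in ASC3-like, 3 and 1 in VEC-like, 13 and 12 in mural-like and 20 and 17 in DEND-like cells, 14 after CL in MAC-like cells, 3 for cold against CL in ASC1-like cells and 17 for the difference of ASC1- and VEC-like cells after CL. DESeq2 called 5 and 4 in mural-like cells, 9 in MAC-like and 13 in DEND-like cells after CL, 13 and 4 for ASC1- against ASC2-like cells and 3 for ASC1- against VEC-like cells after CL. At Leiden resolution 0.5 DEND-like cells had 7 and 3 calls and the mean synthesis level of ASC1-like cells at RT was 1990 CPM. With sums thinned to equal depth the differences counted 7 against ASC2-like cells after CL and 8 and 2 against VEC-like cells after cold and CL. For the fits without the filter, by DESeq2, at Leiden resolution 0.5 and on thinned sums, the share of all genes called was not counted. The counts of members in those fits can therefore not be set against it. The cause of these changes was not tested.

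With the replicate number as a block the counts were 2 in ASC2-like cells after cold, 1 and 1 in ASC3-like and 4 and 1 in mural-like cells, 9 in MAC-like and 14 in DEND-like cells after CL, and no other count moved by over 1.5 times. The block removed no call of a member. Leaving out 1 library at a time, the counts after cold and CL ranged over 19 to 22 and 9 to 18 in ASC1-like cells, 0 to 3 and 0 to 1 in ASC2-like cells, 0 and 0 in ASC3-like cells, 0 and 0 to 1 in VEC-like cells, 0 to 6 and 0 to 2 in mural-like cells, 5 to 10 and 0 to 12 in MAC-like cells, 2 to 13 and 0 to 9 in DEND-like cells, 15 to 21 and 6 to 11 for ASC1- against ASC2-like cells and 6 to 10 and 0 to 15 for ASC1- against VEC-like cells. The share of all genes called was not counted for the fits with a library left out. The RT libraries hold 349 to 385 DEND-like and 491 to 633 mural-like cells, against 1117 to 1393 ASC1-like cells, and whether depth limits the calls was not tested. DESeq2 gave no adjusted p for Tm7sf2 in the comparison of ASC1- with ASC2-like cells after cold.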
